A study of Mus musculus with 12 samples.

Results

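Pcdh20, Inmt and Syndig1 are 3 of the 47729 genes measured in 4 adipose depots of the mouse, and they were picked because their levels part those depots. Pcdh20 and Inmt were chosen on the difference between inguinal white fat (IWAT) and epididymal white fat (EWAT), and Syndig1 on the difference between interscapular brown fat (BAT) and the white depots, among them retroperitoneal fat (RWAT). The values of those contrasts are therefore given as a description, with no test, and tests are given only for depot pairs that the choice did not use. There were 3 libraries of each depot, 12 in all, from wild type male mice of the C57BL/6J strain that were kept on a high-fat rodent diet. The series text gives an age of 6 to 10 weeks without saying whether it is that at the start of the diet or at collection. All 12 libraries, BAT, RWAT, IWAT and EWAT alike, came from surgically denervated fat, so the effect of denervation was not tested. The labels did not say whether libraries of 1 depot came from separate animals, so a p-value here speaks for the spread among these libraries, which may be technical.

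Pcdh20 encodes protocadherin 20, a single-pass adhesion protein of the cadherin superfamily that is coded outside the clustered protocadherin arrays and has been studied mostly in the nervous system. Inmt encodes indolethylamine N-methyltransferase, which moves a methyl group from S-adenosylmethionine to tryptamine and related small amines, and its relatives Nnmt and Pnmt methylate nicotinamide and noradrenaline. Syndig1 encodes a transmembrane protein that was described in rodent neurons, where it associates with AMPA receptors, the glutamate-gated channels of excitatory synapses.

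On GRCm38, Pcdh20 (ENSMUSG00000050505) lies on the minus strand of chromosome 14, from 88464743 to 88471396, with 2 annotated transcripts of 3362 and 5241 bases. Inmt (ENSMUSG00000003477) lies on the minus strand of chromosome 6, from 55170626 to 55175043, with a coding transcript of 1077 bases and a retained-intron transcript of 919 bases. Syndig1 (ENSMUSG00000074736) lies on the plus strand of chromosome 2, from 149829211 to 150004392, with 6 coding transcripts of 413 to 2081 bases. The antisense gene C530025M09Rik (chromosome 2, 149830524 to 149831213) lies within Syndig1, where transcripts of that gene begin, and had 0 counts in each of the 12 libraries. Whether the counting used strand was not given in the sources used here, so reads of the pair could not be told apart. No other annotated gene overlapped the 3.

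The 3 promoters are shown because they differ in composition and in core elements. They are the bases upstream of the start in the RefSeq promoter table, on GRCm38 and on the strand of the gene, with any TATAAA box in capitals. The first spans chr14:88471397-88471646, the second chr6:55175044-55175240 and the third chr2:149830533-149830782, where the second was trimmed to the 197 bases outside the first exon of GENCODE M21.
Pcdh20: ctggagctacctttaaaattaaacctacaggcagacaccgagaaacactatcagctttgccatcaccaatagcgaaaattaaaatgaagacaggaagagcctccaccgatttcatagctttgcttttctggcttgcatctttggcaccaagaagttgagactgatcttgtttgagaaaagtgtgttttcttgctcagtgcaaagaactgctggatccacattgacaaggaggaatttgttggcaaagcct
Inmt: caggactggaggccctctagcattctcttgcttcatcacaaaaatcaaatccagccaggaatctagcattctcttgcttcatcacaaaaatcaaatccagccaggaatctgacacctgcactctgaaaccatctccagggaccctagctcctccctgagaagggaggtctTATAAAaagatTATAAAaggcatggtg
Syndig1: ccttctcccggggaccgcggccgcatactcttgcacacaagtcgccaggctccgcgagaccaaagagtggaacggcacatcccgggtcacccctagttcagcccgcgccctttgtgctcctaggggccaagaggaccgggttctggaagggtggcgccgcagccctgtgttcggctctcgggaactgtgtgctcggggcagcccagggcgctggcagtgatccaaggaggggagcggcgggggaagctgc
The Inmt promoter held TATAAA at 2 places, starting 27 and 16 bases before the annotated exon, and the other two held none on either strand. TATAAA was found on either strand in 12.4% of the 32841 promoter windows of 250 bases in that table. CCAAT was found 1 time in the Pcdh20 window, in neither of the others, and in 33.9% of all windows. A stretch of 46 bases, beginning at base 16 of the printed Inmt sequence, came again without a mismatch at base 62, and 57 windows, or 0.174%, held a direct repeat as long. Over the full 250 bases the G and C content was 42.4% for Pcdh20, 48.0% for Inmt and 68.0% for Syndig1, against a median of 52.4%. The number of CpG dinucleotides was 3, 0 and 20, against a median of 6, and 7.86% of windows held none. These matches describe letters in a window and not binding.

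Pcdh20 was high in IWAT and close to nothing in EWAT, and the other two depots lay between. It had 3.08, 9.05 and 1.21 TPM in IWAT, against 0.04, 0.02 and 0 TPM in EWAT, where TPM is the deposited abundance scaled for transcript length and library. The reads behind these levels, given as RSEM expected counts that were whole numbers for the 3 genes, were 233, 540 and 63 in IWAT and 2, 2 and 0 in EWAT. No IWAT library came near an EWAT library, but the IWAT libraries themselves spread widely, with IWAT 2 at the top and IWAT 3 at the bottom. As a description, IWAT averaged 4.45 ± 4.09 TPM and EWAT 0.02 ± 0.02 TPM (SD, n = 3 each), and the ratio of their pooled CPM, the counts scaled to library size, was 223, with a 95% counting interval of 86.6 to 819. The fitted log2 fold change of IWAT over EWAT was 7.59 ± 1.05 (SE), which ranked 8 among the 18942 genes tested. In bulk tissue such as this, fewer cells of a type and less RNA per cell cannot be told apart.

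As a mark of inguinal fat Pcdh20 met its label in part. Pcdh20 had 0.78, 1.60 and 1.38 TPM in BAT and 2.44, 0.37 and 0.60 TPM in RWAT. The BAT and RWAT libraries therefore overlapped the lowest IWAT library, and both depots lay above all 3 EWAT libraries. Pcdh20 thus parted EWAT from the 3 other depots without overlap, while it did not part IWAT from BAT or RWAT. The means ran from IWAT through BAT, at 1.25 ± 0.424 TPM, and RWAT, at 1.14 ± 1.13 TPM, to EWAT (SD, n = 3 each). In that order IWAT and BAT overlapped, BAT and RWAT overlapped, and RWAT and EWAT did not. Of all genes tested, 17.3% were higher in every IWAT library than in any EWAT library, 5.49% were so for BAT over EWAT and 3.97% for RWAT over EWAT. Since the choice of Pcdh20 used its low level in EWAT, nothing is read from these shares.

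The pair that the choice did not use showed no difference beyond the spread. Pcdh20 had 74, 97 and 106 reads in BAT and 188, 26 and 36 reads in RWAT. The BAT libraries were even, and RWAT 1 stood above all of them while RWAT 2 and RWAT 3 stood below. The log2 fold change of BAT over RWAT was 0.17 ± 0.68, with a 95% interval of -1.31 to 1.64 (edgeR quasi-likelihood test, Benjamini-Hochberg (BH) adjusted p = 0.999). In this comparison edgeR called 4 genes, 0.0211% of those tested, at a BH-adjusted p below 0.05, and Pcdh20 was not among them. The sign depended on which RWAT library was left out. The log2 fold change was 1.35 without RWAT 1, -0.29 without RWAT 2 and -0.07 without RWAT 3. It was 2.04 without both RWAT 1 and RWAT 3, the RWAT libraries richest in muscle transcripts. Summed over 12 skeletal muscle genes, the levels were 30.7 to 144 TPM in BAT against 624, 30.0 and 2498 TPM in RWAT 1 to 3, and their part in this result was not tested.

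**Figure D1:**
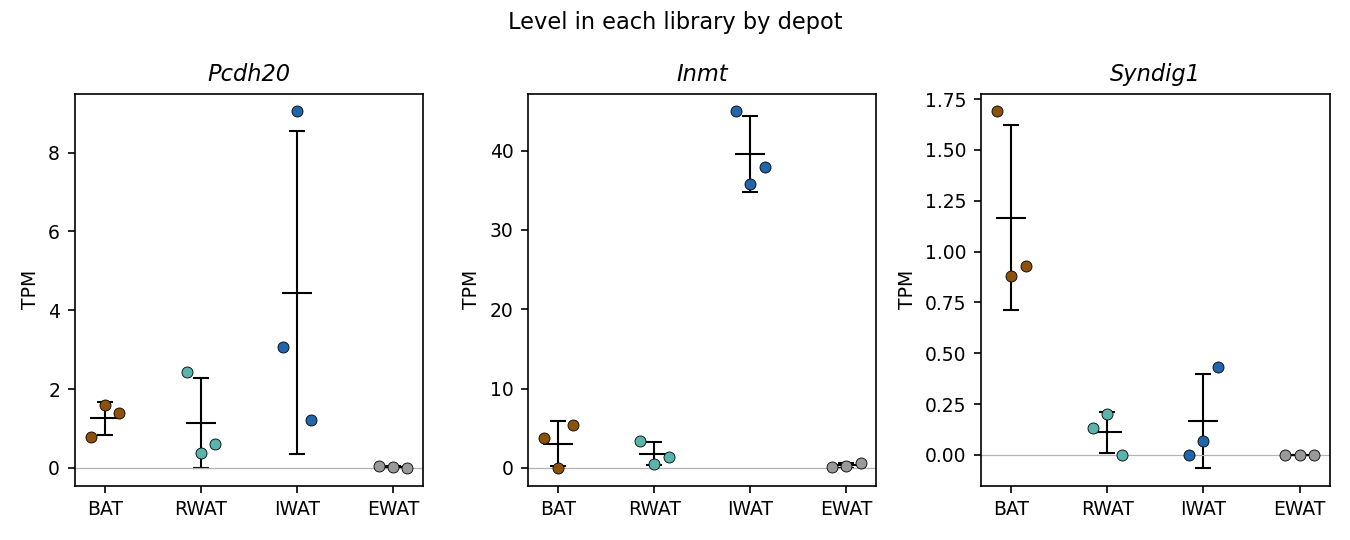
Level of Pcdh20, Inmt and Syndig1 in each library, in TPM on linear axes that differ between panels, with the depots BAT, RWAT, IWAT and EWAT from left to right. Points are libraries, and bars are the mean ± SD of 3 libraries: Inmt averages 39.6 TPM in IWAT, Pcdh20 reaches 9.05 TPM in IWAT 2 and is near 0 in EWAT, and Syndig1 is highest in the 3 BAT libraries.

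Inmt stood far higher in IWAT than in the other depots. It had 44.96, 35.84 and 37.97 TPM in IWAT, against 0.09, 0.22 and 0.63 TPM in EWAT. The reads were 837, 511 and 486 in IWAT and 1, 6 and 12 in EWAT. The IWAT libraries lay close together, at 39.6 ± 4.77 TPM, and EWAT averaged 0.313 ± 0.282 TPM (SD, n = 3 each). The ratio of their pooled CPM was 103 (95% counting interval 65.7 to 171), and the fitted log2 fold change of IWAT over EWAT was 6.74 ± 1.3, rank 13 among the genes tested.

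Brown and retroperitoneal fat held low levels of Inmt that overlapped. Inmt had 3.71, 0 and 5.46 TPM in BAT and 3.37, 0.54 and 1.43 TPM in RWAT. Each of these libraries lay below the lowest IWAT library, and BAT 2 had no read at all. That count of 0 allows up to 0.164 CPM, from a floor of 3 counts in that library. As a description, the level of BAT was 0.0992 times that of IWAT in pooled CPM (95% counting interval 0.0850 to 0.115), and the fitted log2 fold change of RWAT over IWAT was -4.48 ± 1.12. Of all genes tested, 7.91% were higher in every IWAT library than in any BAT library and 15.2% were so for IWAT over RWAT. The means followed the order of Pcdh20, from IWAT through BAT, at 3.06 ± 2.79 TPM, and RWAT, at 1.78 ± 1.45 TPM, to EWAT (SD, n = 3 each). Inmt parted IWAT from BAT, while BAT overlapped RWAT and RWAT overlapped EWAT. Since the choice of Inmt used its high level in IWAT, nothing is read from that separation or from the shares above.

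Inmt did not differ beyond the spread between BAT and RWAT, the pair that the choice did not use. The reads were 83, 0 and 106 in BAT and 59, 8 and 20 in RWAT. BAT 1 and BAT 3 exceeded every RWAT library, and BAT 2 made the depots overlap. The log2 fold change of BAT over RWAT was 1.11 ± 1.04, with a 95% interval of -1.17 to 3.39 (edgeR BH-adjusted p = 0.999). It was 1.70 without BAT 2 (edgeR BH-adjusted p = 0.587, where the 20 alternatives gave 0.462 to 1.00), and it lay between 0.48 and 1.93 when any 1 library was left out. It was 3.20 without RWAT 1 and RWAT 3, so the value rests on few libraries. The biological coefficient of variation of Inmt was 0.962 and that of Pcdh20 0.643, against 0.385 for all genes together.

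**Figure D2:**
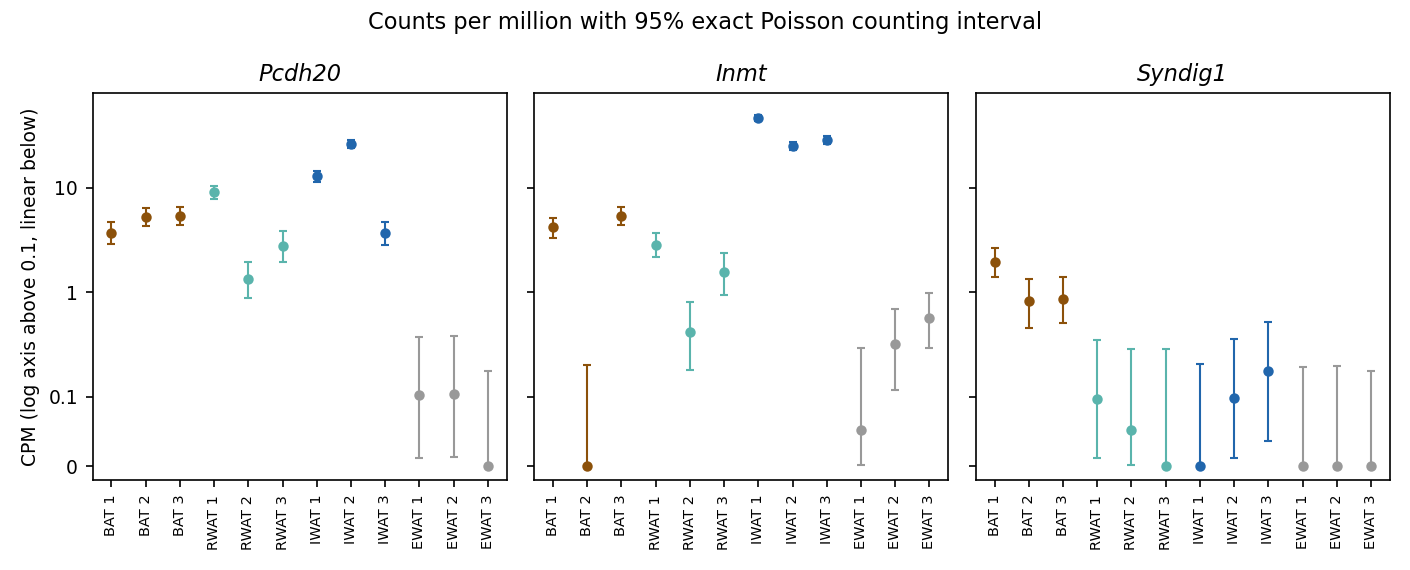
CPM of each gene in the 12 libraries, with 95% exact Poisson intervals, on an axis that is logarithmic above 0.1 and linear below. The depots run BAT, RWAT, IWAT, EWAT; libraries with 0 counts sit on the lower line, among them BAT 2 for Inmt and all 3 EWAT libraries for Syndig1, and the intervals cover counting error only.

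Adipocyte transcripts together were highest in IWAT, as Inmt was. Adiponectin, Adipoq, a secreted adipocyte protein, stood at 515, 221 and 2268 TPM in BAT 1 to 3, at 1083, 358 and 867 TPM in RWAT, at 1929, 2826 and 3349 TPM in IWAT and at 52.1, 674 and 326 TPM in EWAT. The library with the least Inmt was also the one with the least Adipoq in BAT (BAT 2), in RWAT (RWAT 2) and in EWAT (EWAT 1), and not in IWAT. The 12 pan-adipocyte genes together gave 5739 to 18256 TPM in BAT, 6626 to 10943 TPM in RWAT, 18931 to 25994 TPM in IWAT and 3085 to 7355 TPM in EWAT, and none was at 0. No IWAT library overlapped another depot in that sum. Within BAT the sum did not follow Adipoq: it was lowest in BAT 1, at 5739 TPM, against 6480 TPM in BAT 2, which had no read of Inmt. In RWAT and EWAT it was lowest in RWAT 2 and EWAT 1, as Adipoq was. Of the 12, edgeR called 0 between IWAT and EWAT, with 7 at an unadjusted p below 0.05 and 6 called by DESeq2. Over all genes edgeR called 11.0%, 30.7% had an unadjusted p below 0.05 and DESeq2 called 20.0%. Their median log2 fold change was 2.24, against 0.024 for all genes, and the part of adipocyte content in the level of Inmt was not tested.

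Progenitor, Schwann cell, mesothelial, macrophage, and mural and smooth muscle lists each held more than 1 gene called between IWAT and EWAT. The B cell, blood endothelial, and gland and skin epithelium lists held 1 each, of 10, 10 and 5 tested, where edgeR called 11.0% of all genes. Of 10 mural and smooth muscle genes, 2 were higher in IWAT and 2 lower. Of 12 interstitial progenitor and fibroblast genes, 6 were higher in IWAT and 0 lower, and of 11 Schwann cell genes tested 5 were higher and 0 lower, where edgeR called 11.0% of all genes. The progenitor genes summed to 3041 to 7150 TPM in IWAT and 2041 to 7000 TPM in EWAT, and the Schwann cell genes to 59.7 to 113 TPM in IWAT and 15.5 to 22.6 TPM in EWAT. The summed progenitor levels overlapped, and the Schwann cell levels did not. Mesothelial genes, which mark the lining of the body cavity, gave 2.70 to 4.45 TPM in IWAT and 22.7 to 89.3 TPM in EWAT, and 7 of 12 were lower in IWAT and 0 higher. Macrophage genes gave 2013 to 3731 TPM in IWAT and 5746 to 11489 TPM in EWAT without overlap. Of 10 tested, 3 were lower and 1 higher, with 8 at an unadjusted p below 0.05, against 30.7% of all genes. The part of these lists in the levels of Pcdh20 and Inmt was not tested.

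Syndig1 was a gene of few reads, found mainly in brown fat. It had 39, 15 and 17 reads in BAT, against 2, 1 and 0 in RWAT, 0, 2 and 3 in IWAT and 0 in each EWAT library. Its levels were 1.69, 0.88 and 0.93 TPM in BAT and at most 0.43 TPM in a white library. The lowest BAT library stood above the highest white library, as did 0.248% of the genes tested. BAT averaged 1.17 ± 0.454 TPM (SD, n = 3) and the white depots 0.0922 ± 0.146 TPM (SD, n = 9). This is the contrast on which the gene was chosen, and edgeR called 10 genes, 0.0528% of those tested, in it.

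As a description, the pooled CPM of Syndig1 in BAT were 25.8 times those of all white libraries together (95% counting interval 12.4 to 62.1). The fitted log2 fold change of BAT over the mean of the white depots was 5.22 ± 0.64, rank 8 of the genes tested, and 4.65 without BAT 1. By depot, BAT stood 21.8 times above RWAT (95% counting interval 7.15 to 108) and 13.7 times above IWAT (5.59 to 43.4). Against EWAT, where 3 counts over the 3 libraries were taken as the floor, the ratio of BAT was 24.3. The 95% counting interval of BAT over EWAT begins at 19.2. BAT 1 held more reads of Syndig1 than the other two BAT libraries together. The same library held nearly all of the Ucp1, the uncoupling protein of brown adipocytes, with 792, 0.21 and 1.02 TPM in BAT 1 to 3 and at most 8.68 TPM in a white library. The 10 thermogenic brown adipocyte genes together gave 2204, 16.7 and 28.3 TPM in BAT 1 to 3 and 12.99 to 319 TPM in white fat, and none was at 0 throughout a depot. In BAT 2 and BAT 3 this sum lay within the range of white fat. The 10 T and natural killer cell genes also stood apart in BAT 1, with 70.9, 9.70 and 22.6 TPM in BAT 1 to 3 and at most 17.2 TPM in white fat. Of 9 tested, edgeR called 0 between BAT and the white mean, with 8 at an unadjusted p below 0.05, against 4.92% of all genes, and 2 called by DESeq2. The part of either list in the level of Syndig1 was not tested.

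Among the white depots Syndig1 was too sparse to order. Its means were 0.110 ± 0.101 TPM in RWAT, 0.167 ± 0.231 TPM in IWAT and 0 in EWAT (SD, n = 3 each). The depots overlapped in both neighbouring pairs of that order, and the depots had 3, 5 and 0 reads in all. Set against the same floor for EWAT, which had no read, IWAT gave a ratio of 1.78. That is no bound, as the 95% counting interval begins at 0.976 and so includes no difference. Syndig1 passed the filter on low counts only through its BAT reads, so tests between white depots cannot decide this question. Their values are listed with nothing read from them. For IWAT over EWAT the edgeR BH-adjusted p was 0.148 (unadjusted p = 0.0424). For RWAT over EWAT, where both groups are at or under the floor, no fold is given (edgeR BH-adjusted p = 0.997), and edgeR called 1 gene, 0.00528% of those tested. RWAT over IWAT gave a fitted log2 fold change of -0.71 ± 1.19, which with so few reads is no bound, with a 95% interval of -3.26 to 1.84 (edgeR BH-adjusted p = 0.777). In that last comparison edgeR called 0 genes, 0.00%, with 3909 at an unadjusted p below 0.05 and 1150 called by DESeq2. A level below these floors was not detectable at this depth.

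The TPM of Syndig1 in white fat also depended on the transcript to which few reads were assigned. The deposited effective length was 1027, 1115 and 941 bases in BAT 1 to 3, which lies between the short annotated transcripts, of at most 620 bases, and the long ones, of 2050 and 2081 bases. It was 958 bases in the libraries without a read. In the white libraries with a read it ran from 340 bases in RWAT 2 to 1977 bases in IWAT 2. So 1 read gave 0.20 TPM in RWAT 2, and 2 reads gave 0.07 TPM in IWAT 2.

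None of the other nonclustered protocadherins tested passed the test between IWAT and EWAT. Of the 11 besides Pcdh20, 8 were tested and edgeR called 0 in this contrast, with 1 at an unadjusted p below 0.05 and 1 called by DESeq2. At the 11.0% of all genes that edgeR called, 0 of 8 does not set the family apart. Their median log2 fold change was 0.36, against 0.024 over all genes, and 5 of 8 were above 0. Pcdh9, also the nearest protein-coding gene on one side of Pcdh20, at 4542013 bases, had the largest value, 1.96 ± 0.65 (edgeR BH-adjusted p = 0.0706). It stood at 0.53, 1.28 and 1.04 TPM in IWAT and 0.51, 0.10 and 0.37 TPM in EWAT, so every IWAT library was above every EWAT library by a small margin, as for 17.3% of all genes. Of the 8 genes, 1 was called when BAT 1 or BAT 2 was left out.

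The rest of the family was spread over the depots. Pcdh7 and Pcdh19 were the most abundant of the list by their means over all libraries together with Pcdh1, and their log2 fold changes of IWAT over EWAT were -0.05 ± 0.27, 0.07 ± 0.34 and -0.57 ± 0.61. Pcdh12, a protocadherin of endothelial cells, had -0.49 ± 0.58, Pcdh17 0.64 ± 0.41, Pcdh18 0.66 ± 0.35 and Pcdh11x 0.89 ± 0.74. None of these 7 passed the test, with edgeR BH-adjusted p from 0.222 to 0.930. In the 6 other comparisons edgeR and DESeq2 called 0 of the 8, with at most 1 at an unadjusted p below 0.05, where edgeR called 0.143% of all genes for BAT over EWAT and 0.0264% for BAT over IWAT.

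Genes of the methyl donor cycle and of small-molecule methylation gave 1 call in each direction between IWAT and EWAT. Of 21 listed besides Inmt, 17 were tested, and 7 had an unadjusted p below 0.05, against 30.7% of all genes. The 2 edgeR calls among 17 are a share near the 11.0% of all genes called. DESeq2 called 6 of the 17, against 20.0% of all genes. Mat2a, which makes S-adenosylmethionine, was higher, at 198 ± 66.1 TPM in IWAT and 102 ± 31.2 TPM in EWAT (log2 fold change 0.66 ± 0.17, edgeR BH-adjusted p = 0.0360). Ahcy, which breaks down the S-adenosylhomocysteine that methylation leaves, was lower, at 7.19 ± 2.38 TPM in IWAT and 16.1 ± 6.52 TPM in EWAT (SD, n = 3 each; log2 fold change -1.36 ± 0.26, edgeR BH-adjusted p = 0.0167). The call of Ahcy held in 17 of 20 alternatives and ended without EWAT 3, IWAT 1 or IWAT 2. That of Mat2a held in 9 of 20 and ended without any 1 of EWAT 1, EWAT 2, EWAT 3, IWAT 1, IWAT 2 or RWAT 1, and the direction of both held in all 20. The median log2 fold change of the 17 was 0.56, against 0.024 over all genes, and 14 of 17 were above 0.

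The closest relative of Inmt that was well expressed, Nnmt, had the same order of IWAT and EWAT but did not pass the test. Nnmt stood at 261, 186 and 161 TPM in IWAT and 25.6, 56.3 and 73.2 TPM in EWAT. Its IWAT libraries lay above all EWAT libraries, as for 17.3% of all genes (log2 fold change 1.69 ± 0.62, edgeR BH-adjusted p = 0.0935). In mean TPM Nnmt was above Inmt in all 4 depots, at 87.8 against 3.06 TPM in BAT, 76.0 against 1.78 TPM in RWAT, 203 against 39.6 TPM in IWAT and 51.7 against 0.313 TPM in EWAT. Pnmt, which makes adrenaline, had 1 read in the 12 libraries and was not tested. Of the abundant genes of the list, Ahcyl2 had 1.56 ± 0.46, Ahcyl1 0.36 ± 0.23 and Mat2b, a partner of Mat2a, 0.20 ± 0.24 (log2 fold change of IWAT over EWAT). Of these 3, Ahcyl2 was nearest to the threshold, with an edgeR BH-adjusted p of 0.0515. In the other 6 comparisons edgeR called 0 of the 17, where it called at most 0.143% of all genes. From 1 to 8 had an unadjusted p below 0.05, and DESeq2 called at most 1. The 8 and the DESeq2 call were both for RWAT over IWAT. There 3909 of all 18942 genes tested had such a p, and DESeq2 called 1150.

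**Figure D3:**
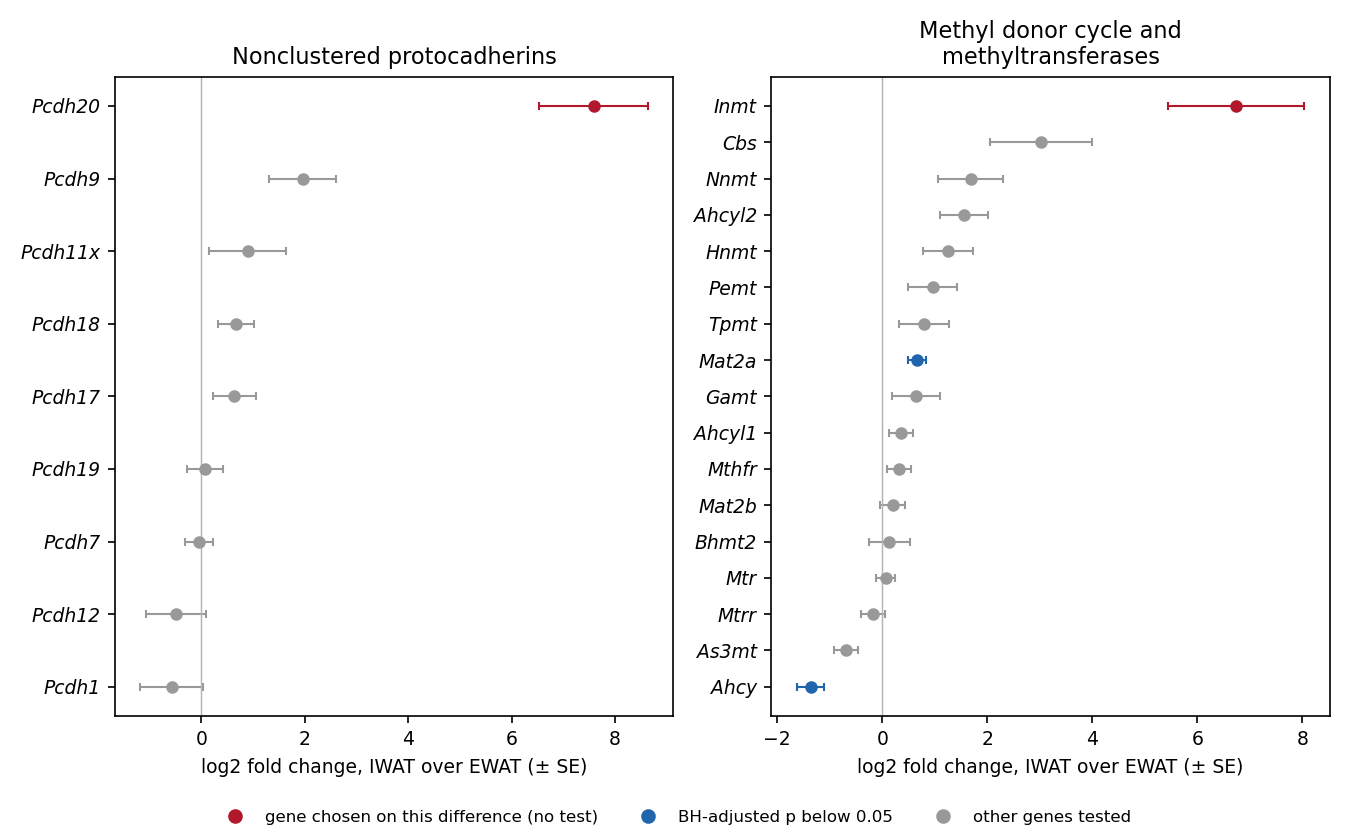
Fitted log2 fold change of IWAT over EWAT, ± SE, for the nonclustered protocadherins (left) and for the methyl donor cycle and small-molecule methyltransferases (right). Pcdh20 and Inmt, in red, were chosen on this difference and carry no test; in blue are Mat2a and Ahcy, which passed a BH-adjusted p of 0.05, and 1 tested gene on the right is not drawn.

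The AMPA receptor list gave no call in the contrast that chose Syndig1. Of 24 listed besides Syndig1, 12 were tested, and edgeR called 0 of them in BAT over the mean of the white depots, with 2 at an unadjusted p below 0.05 and 0 called by DESeq2. Their median log2 fold change there was -0.23, against 0.0079 over all genes. Gria3, a receptor subunit and 1 of these 2, had -0.77 ± 0.30 (edgeR BH-adjusted p = 0.810), and the other was lower in BAT by more. The relatives of Syndig1 showed no difference beyond the spread. Prrt1 stood at 0.483 ± 0.242 TPM in BAT, with -0.41 ± 0.42, and Tmem91 at 0.670 ± 0.149 TPM, with -0.08 ± 0.48 (edgeR BH-adjusted p = 0.999 for both). Syndig1l had 1 read in all libraries, in IWAT 3, and was not tested.

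Between IWAT and EWAT 2 of the 12 were called, in opposite directions, where edgeR called 11.0% of all genes. The subunit Gria4 was higher, at 0.43, 0.42 and 0.64 TPM in IWAT and 0.01, 0.05 and 0.13 TPM in EWAT (log2 fold change 2.46 ± 0.64, edgeR BH-adjusted p = 0.0371). Gria3 was lower, at 1.45, 2.27 and 1.59 TPM in IWAT and 4.10, 2.51 and 2.47 TPM in EWAT (-1.28 ± 0.36, edgeR BH-adjusted p = 0.0441). For both genes the libraries of the 2 depots did not overlap, as for 17.3% of all genes with IWAT above EWAT and 15.1% with IWAT below. The call of Gria4 held in 9 of 20 alternatives and that of Gria3 in 6 of 20, and each ended without any 1 of the 6 IWAT and EWAT libraries or RWAT 1. That of Gria3 also ended without BAT 1, RWAT 2 or RWAT 3. The most abundant others were Gripap1, the scaffold Dlg4, the AMPA receptor binding protein Pick1 and the auxiliary subunit Cacng7, with log2 fold changes of -0.34 ± 0.17, -0.39 ± 0.27, 0.53 ± 0.33 and 0.87 ± 0.38. None of these 4 passed the test, with edgeR BH-adjusted p from 0.144 to 0.366. In the 5 comparisons besides this one and BAT against the white mean, edgeR called 0 of the 12, against at most 0.143% of all genes. From 0 to 3 had an unadjusted p below 0.05, and DESeq2 called at most 1. The 3 were reached for RWAT over IWAT and BAT over EWAT, where 3909 and 1884 of all 18942 genes tested had such a p.

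The genes whose pattern was most like each of the 3 were ranked by Pearson's r of log2 CPM over the 12 libraries. The libraries fall into 4 depots and the genes were in part chosen on them, so the r values are a description and carry no p. For Pcdh20 the 5 highest of 13046 genes were Akr1c18, a steroid-reducing enzyme, with r = 0.972, Pi16, a marker of interstitial progenitors, with 0.968, the homeobox factor Zfhx4 with 0.964, the SNARE-binding Stxbp6 with 0.960 and the T-box factor Tbx15 with 0.959. After the depot means were removed, r was 0.647 to 0.853 for these 5. Pi16 stood at 133, 417 and 85.5 TPM in IWAT and 2.85, 2.67 and 1.94 TPM in EWAT. As with Pcdh20, its highest IWAT library was IWAT 2 and its highest RWAT library RWAT 1, at 79.7 TPM.

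For Inmt the 5 highest were Repin1, a zinc finger protein, with r = 0.978, Ivd, an enzyme of leucine breakdown, with 0.975, Pdpr, a regulator of pyruvate dehydrogenase phosphatase, with 0.972, the sterol-binding Osbpl1a with 0.972 and Pik3r1, the regulatory subunit of phosphoinositide 3-kinase, with 0.971. After the depot means were removed, r was 0.905 to 0.971. Ivd had 189 ± 44.2 TPM in IWAT and 36.6 ± 12.1 TPM in EWAT (SD, n = 3 each). All 5 spanned a narrower range than Inmt, as the plot of the 12 libraries shows. For Syndig1 the 5 highest of 13047 were the RNA helicase Mov10 with r = 0.917, the ubiquitin ligase Rnf213 with 0.905, the nuclear body protein Pml with 0.901, the helicase Helz2 with 0.898 and the Mediator subunit Med12 with 0.897. With the depot means removed, r was 0.471 to 0.889. Outside BAT 1 no library had more than 17 reads of Syndig1, so its likeness rests on few reads.

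**Figure D4:**
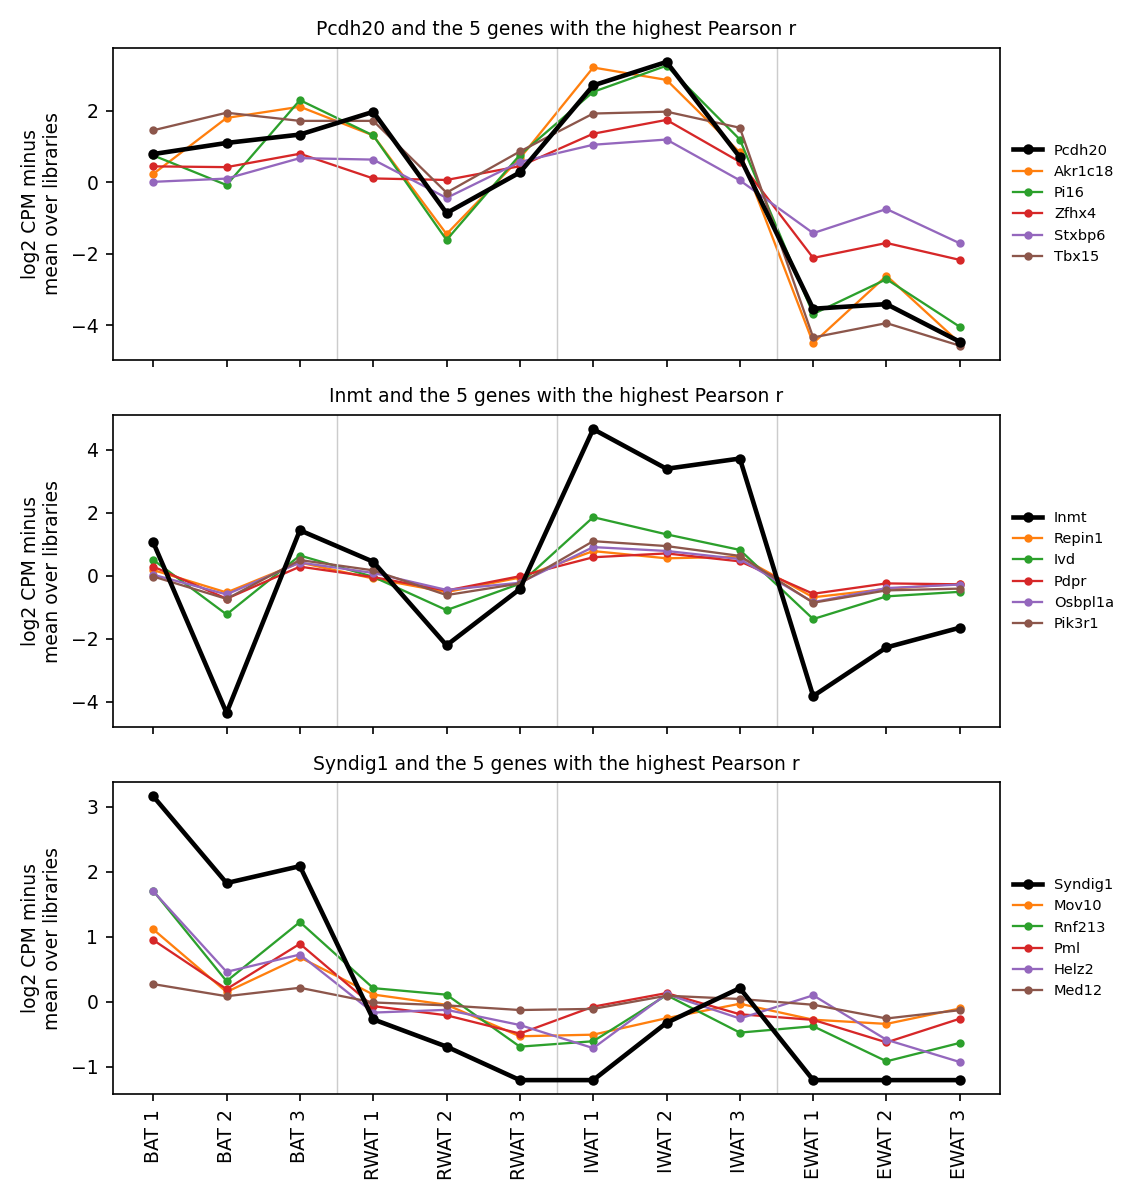
Pcdh20, Inmt and Syndig1 (black) and the 5 genes with the highest Pearson r for each, as log2 CPM less the mean over the 12 libraries, with libraries in the order BAT, RWAT, IWAT and EWAT. The genes drawn with Inmt follow its ups and downs over a narrower range, and BAT 2, at 0 counts of Inmt, is its lowest point.

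Likeness among the 3 genes themselves was lower. Between Pcdh20 and Inmt r was 0.67 over the 12 libraries and 0.18 after the depot means were removed. Between Pcdh20 and Syndig1 it was 0.39 and -0.17, and between Inmt and Syndig1 0.075 and 0.28. The first 2 genes thus shared a depot order with little likeness within depots, and Syndig1 followed neither.

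The nearest protein-coding genes showed smaller differences between depots. Beside Pcdh20, Tdrd3, a tudor domain protein gene 919238 bases away, stood at 15.4 ± 3.63 TPM in BAT, 14.9 ± 0.627 TPM in RWAT, 20.6 ± 7.01 TPM in IWAT and 11.2 ± 3.59 TPM in EWAT. Beside Inmt, the deubiquitinase gene Mindy4, 28339 bases away, had 4.42 ± 1.65 TPM in IWAT and 2.69 ± 0.598 TPM in EWAT, and Crhr2, a receptor of corticotropin-releasing hormone 37609 bases away, at most 0.16 TPM in any library. Beside Syndig1, the zinc finger gene Zfp120, 110013 bases away, stood at 8.70 ± 0.706 TPM in BAT, 12.8 ± 3.17 TPM in RWAT, 8.90 ± 1.51 TPM in IWAT and 12.4 ± 2.77 TPM in EWAT (SD, n = 3 each). Cst10, on the other side at 418917 bases, was at 0 in all 12 libraries. In mean TPM no neighbour above 0 parted the depots by as large a ratio as the gene beside it. The 3 genes were picked because they part the depots, so smaller ratios beside them were likely in advance. Nothing is read from this.

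Total counts ran from 12933516 in RWAT 3 to 21106554 in EWAT 3, so a floor of 3 counts equals 0.142 to 0.232 CPM in a single library. Of 14 lists of cell type markers, the one for sympathetic neurons had Dbh, Snap25 and Th at 0 in BAT. The epididymal epithelium list, of a tissue next to EWAT, gave at most 0.18 TPM in EWAT in sum, with 8 of 10 genes at 0 there. Mesothelin, Msln, stood at 0.15 to 0.66 TPM in IWAT and 0.70 to 5.66 TPM in EWAT, and the progenitor marker Pdgfra at 42.5 to 70.2 TPM in IWAT and 13.9 to 39.4 TPM in EWAT. The collagen gene Col1a1 of the same list, named here after its values were seen, averaged 739 ± 394 TPM in IWAT and 1094 ± 915 TPM in EWAT (SD, n = 3 each). Acta1, skeletal muscle actin, reached 349 TPM in RWAT 3 and at most 22.8 TPM outside RWAT.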

How the data were processed

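Total RNA depleted of ribosomal RNA was sequenced as single-end reads of 75 bp in 12 libraries, per the labels' protocols. Per the submitters' processing notes, the authors used Trimmomatic 0.36, RSEM 1.3.0, DESeq2 1.10.1 and GRCm38.p4, while neither aligner nor annotation release is given in the sources used here. Per the file headers, the deposited tables hold the RSEM expected count of each gene, an estimated read count with no scaling between libraries, and the TPM, an abundance scaled for effective length. The deposited effective length is in bases.

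Expected counts were rounded and filtered with filterByExpr of edgeR 4.0.16 (R 4.3.3; minimum count 10), which left 18942 of 47729 genes. With TMM scaling, 1 quasi-likelihood model (glmQLFit, legacy = FALSE) with a coefficient per depot was fitted over all libraries, two-sided, with BH adjustment over all genes tested and a threshold of 0.05. Pcdh20 and Inmt were tested between BAT and RWAT, and Syndig1 between the white depots. Ratios carry 95% exact counting intervals, which cover counting error only. Of the gene IDs, 47224 were in GENCODE M21, and all 3 genes were in the RefSeq promoter table. The fit was also run on simulated counts, whose spread followed the trend over all genes. That trend gave a biological coefficient of variation of 0.423 for Pcdh20 and 0.375 for Inmt, below their own 0.643 and 0.962. The simulated run therefore does not speak for the tests of these genes.

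The 3 genes, the lists and the tests were chosen with earlier results of these data known. Genes named are the 3, the 5 with the highest Pearson r to each (log2 CPM with a prior count of 2, mean of at least 1 CPM), family members, list genes called, the 4 other list genes with the highest mean TPM, the nearest protein-coding gene on each side, and Ucp1, Adipoq, Msln, Acta1 and Pdgfra, except that 2 list genes, which the counts include, are not reported here. Same-numbered libraries deviated together between BAT and RWAT (correlations 0.18, 0.43 and 0.20) and in none of the other 5 depot pairs in all 3 numbers. Alternatives were RLE factors, no filter, 1 CPM in 3 libraries, DESeq2 1.42.0, only the depots compared, a replicate block, each library left out, and 2 pairs of libraries left out.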

Additional observations from a re-analysis of the deposited data

Results flagged for a closer look

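Syndig1 had 0.43 TPM in IWAT 3, from 3 reads, and stood apart from the other 8 white libraries, which had 0 to 0.20 TPM. The gap to the next library took 0.535 of the whole range of the 9 white libraries, past Dixon's critical value of 0.493. That value assumes normally spread measurements, while these were zeros and levels from few reads, so the flag carries no error rate. The low white levels were also used to choose the gene, and nothing is read from the flag. In CPM the same library had 0.176, with a 95% counting interval of 0.0363 to 0.514, and its effective length of 547 bases was shorter than in IWAT 2, which had 2 reads and 0.07 TPM at 1977 bases.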

How the results depend on the processing

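No member passed or lost a call under any alternative, and Inmt for BAT over RWAT kept its direction in all. The direction of Syndig1 for IWAT and RWAT over EWAT was fixed in advance, as EWAT had no read, so nothing is read from it. Over these 3 results the BH-adjusted p was 0.138 to 1.00 in all that could be fitted. Syndig1 did not pass the filter of 1 CPM in 3 libraries or the fit of only the depots compared, so these gave it no value between white depots, and DESeq2 gave no adjusted p for RWAT over IWAT. Pcdh20 for BAT over RWAT turned to -0.29 without RWAT 2 and -0.07 without RWAT 3, with a range of -0.29 to 1.35 over single libraries left out. Syndig1 for RWAT over IWAT turned to 0.027 without IWAT 3, with a range of -1.49 to 0.027. Syndig1 for BAT over the white mean was 4.65 without BAT 1, in a range of 4.65 to 5.48.

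Counts of genes called moved more. For IWAT over EWAT (2082) the count was 3780 by DESeq2, 1064 with the replicate block, 1071 without EWAT 1 and BAT 2, 1141 without RWAT 1 and RWAT 3, and 55 (without IWAT 2) to 2769 (without BAT 2) over single libraries. For BAT over the white mean (10) it was 21 with no filter, 180 by DESeq2, 208 without EWAT 1 and BAT 2, 4 without RWAT 1 and RWAT 3, and 1 to 251. For BAT over RWAT (4) it was 45 by DESeq2, 2 with only the depots compared, 17 without EWAT 1 and BAT 2, 0 without RWAT 1 and RWAT 3, and 0 to 28. For RWAT over EWAT (1) it was 2 by RLE, 2 with no filter, 130 by DESeq2, 0 with only the depots compared, 0 without EWAT 1 and BAT 2, and 0 to 79. For RWAT over IWAT (0) it was 1150 by DESeq2, 2 with only the depots compared, 1 without EWAT 1 and BAT 2, 3 without RWAT 1 and RWAT 3, and 0 to 61.

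Between IWAT and EWAT, the protocadherins called (0) were 1 by DESeq2, 1 with only the depots compared and 0 to 1 over single libraries. Those of the methyl donor list (2) were 1 with no filter, 6 by DESeq2, 1 with the replicate block, 1 without EWAT 1 and BAT 2, 1 without RWAT 1 and RWAT 3, and 0 to 4, and DESeq2 called 1 for RWAT over IWAT. Those of the AMPA receptor list (2) were 1 with no filter, 1 with only the depots compared, 0 with the replicate block, 0 without EWAT 1 and BAT 2, 0 without RWAT 1 and RWAT 3, and 0 to 2. The causes were not tested. The labels did not say whether same-numbered libraries share an animal. Between BAT and RWAT, where such libraries deviated together in all 3 numbers, the replicate block gave 0.45 for Pcdh20 and 0.88 for Inmt and left both uncalled. Ranked by Spearman's rho, 2 of the 5 genes most like Pcdh20 and 4 of those most like Syndig1 were the same, and for Inmt 6 genes tied at the highest rho, 2 of them among its 5. Depth limits Syndig1, with 8 reads in the 9 white libraries together.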
